A study of Homo sapiens with 10 samples.

Results

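The 4527 regions described here are stretches of the human genome that carried a peak of RNA-DNA hybrid signal in all 5 pulldown libraries of the study and lay more than 1 kb from every annotated gene. They were found by merging overlapping peaks of the 5 lists on chromosomes 1 to 22 and X, which gave 177039 merged regions. Of these, 21945 overlapped a peak of every library and 20732 of them were under 5000 bases wide. A shared region was kept when no RefSeq gene of any biotype on GRCh38 came within 1 kb of it, and 21.8% of the shared regions under 5000 bases met that rule. The regions were thus chosen by the positions of the authors' peaks alone, so the presence of the regions in every library is a description and was not tested. All coordinates are 1-based and refer to hg38 (GRCh38).

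An R-loop is a three-stranded structure in which a nascent RNA pairs with its DNA template and leaves the other DNA strand unpaired. R-loops form mainly where RNA polymerase transcribes, and they are best known at promoters, at transcription termination sites and over the ribosomal RNA genes. They also form at enhancers, at telomeres and in transcription that runs past the annotated end of a gene. TDP1 removes trapped topoisomerase I from DNA ends, and the H493R substitution in TDP1 causes SCAN1, a neurodegenerative ataxia.

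The study used U2OS, an osteosarcoma cell line, with the TDP1 H493R genotype in the lines named SCAN1#1 and SCAN1#2 and with the WT genotype as the comparison. Hybrids were pulled down from sonicated genomic nucleic acid of non-crosslinked nuclei with the S9.6 antibody, which binds RNA-DNA hybrids (DRIP-seq), and RNase H was applied to the pulled-down material during library making. SCAN1#1 was profiled in experiments 1 and 2 (replicates 1 and 2), SCAN1#2 in experiment 2 (replicate 2) and WT in experiments 1 and 2 (replicates 1 and 2), so that 2 of the 3 SCAN1 libraries come from SCAN1#1. Experiment 1 used a single lot of S9.6 and experiment 2 a mix of 2 other lots. The experiment and the antibody lot cannot be told apart. The labels do not say whether the lines are clones or whether replicates came from separate cultures, so a p-value given below reflects only how far these libraries scatter, which may be technical. The 5 matching input samples were not analysed here, and the labels and lists state no number of reads.

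The deposited lists held 63456, 110745 and 89932 peaks in SCAN1#1 replicate 1, SCAN1#1 replicate 2 and SCAN1#2 replicate 2, against 82545 and 89445 peaks in WT replicates 1 and 2. Because a longer list covers more sequence, levels were compared between libraries on lists of equal length, made of the 63456 strongest peaks of each library by −log10 p. The coverage of a region below is the percent of its bases that lie under peaks of such a list. The 63456 peaks are the whole list of SCAN1#1 replicate 1, which thus kept a peak in every region. In SCAN1#1 replicate 2 and SCAN1#2 replicate 2, 406 and 311 regions had no peak left and so no coverage. In WT replicates 1 and 2 the same held for 336 and 291 regions. Of 10 genes fixed as markers of an osteosarcoma line, 8, 8 and 9 overlapped a peak in the SCAN1 libraries and 8 and 7 in the WT libraries. Of 10 genes of other lineages, 1, 1 and 2 overlapped a peak in the SCAN1 libraries and 1 and 1 in the WT libraries.

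The regions away from genes were narrow, mostly single-peak sites. Their width ran from 296 to 4986 bases with a median of 888, and together they spanned 4.74 Mb. Shared regions at gene ends had a median width of 1539 bases and those inside genes one of 1060 bases. A single peak made up 92.5%, 95.4% and 95.6% of the regions in SCAN1#1 replicate 1, SCAN1#1 replicate 2 and SCAN1#2 replicate 2, and 92.0% and 96.3% in WT replicates 1 and 2. The summits of the libraries lay close together inside them. Between pairs of libraries of experiment 2 the median distance between summits was 48 to 54 bases, against 88 bases between the pair of experiment 1 libraries, and it was 77 to 89 bases across experiments. Gene-end regions had median summit distances of 61 to 67 bases within experiment 2, 108 bases within experiment 1 and 85 to 108 bases across experiments.

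The distance to the nearest gene had a median of 8.69 kb, with quartiles of 3.59 and 21.7 kb and a maximum of 3570 kb. The regions thinned out with that distance. There were 9.33 regions per Mb of available sequence at 1 to 2 kb from a gene, 7.80 at 2 to 5 kb, 5.48 at 5 to 10 kb, 4.22 at 10 to 20 kb, 2.70 at 20 to 50 kb, 1.76 at 50 to 100 kb and 0.521 beyond 100 kb. Available sequence means all bases between annotated genes, and stretches without known sequence were not taken out. The density far from genes may thus be understated, as may that of a chromosome below. The nearest gene was protein-coding for 1920 regions (42.4%), a long noncoding RNA gene for 1487 (32.8%) and a pseudogene not annotated as transcribed for 915 (20.2%). These kinds made up 33.8%, 30.8% and 25.7% of all genes. Among 945 regions within 10 kb of a protein-coding gene whose strand was known, 522 lay downstream of the gene and 423 upstream. The downstream share was thus 55.2%, where 51.0% of the matching sequence lies downstream. At 1 to 2 kb both of these shares were 52.9%. They were 57.3% and 51.4% at 2 to 5 kb, and 54.0% and 49.8% at 5 to 10 kb. Of the 1583 protein-coding genes that were the nearest neighbour of a region, 64.0% carried a shared region themselves, compared with 46.2% of all 19974 protein-coding genes. These shares are descriptions of the map and were not tested.

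The regions were unevenly spread over the chromosomes, with 3.49 per Mb of sequence more than 1 kb from genes in the genome as a whole. Chromosomes 17 and 19 each held 11.2 regions per Mb, chromosome 22 held 9.41, chromosome 20 held 7.59 and chromosome 7 held 6.10. Chromosome 13 held only 0.377 per Mb and chromosome X 0.439. The order was another one when the regions were set against the other shared regions under 5000 bases of the same chromosome. By that measure chromosome 19 was lowest, at 17.7%, and chromosome 17 had 26.1%. Chromosomes 21, 8 and 4 were highest, at 50.4%, 41.8% and 41.2%. The density per Mb thus does not mark chromosomes 17 and 19 as rich in regions away from genes among their shared regions. Copy number in these cells was not measured in the files used here, and its part in this pattern was not tested.

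**Figure D1:**
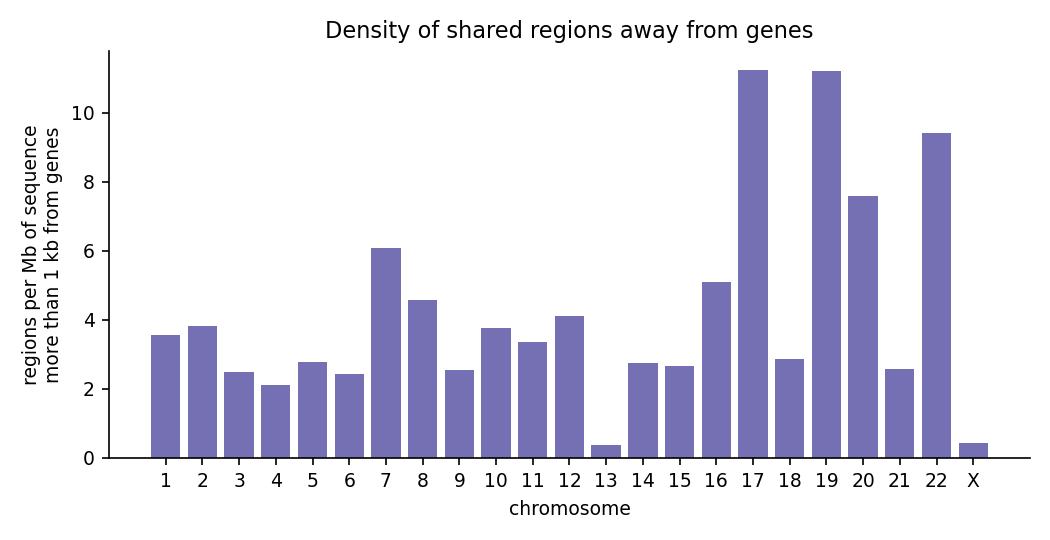
Number of shared regions away from genes per Mb of sequence lying more than 1 kb from every gene, for each chromosome; each bar is a count over the sequence available and has no error. Chromosomes 17, 19, 22 and 20 stand above the others, at 7.59 to 11.2 per Mb, and chromosomes 13 and X lie below 0.5 per Mb.

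The authors' fold enrichment gives the height of each peak over its local background, and it ranks regions within a list; folds of different lists stand side by side below but were not compared. The median over the regions of the highest fold was 5.40, 8.60 and 8.18 in SCAN1#1 replicate 1, SCAN1#1 replicate 2 and SCAN1#2 replicate 2, and 5.83 and 7.96 in WT replicates 1 and 2. The median over all peaks of the same lists was 4.85, 5.76 and 5.94 in those SCAN1 libraries and 4.84 and 5.68 in those WT libraries. The regions therefore ranked above the middle of every list, as regions present in every list tend to by choice.

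The strongest regions away from genes lay next to chromosome ends, ribosomal RNA genes and a small set of single loci. The region with the highest mean rank, chr5:11440-11735, lay before the first annotated gene of the short arm and 13.4 kb from LOC124900928. Its fold was 66.1, 77.9 and 60.7 in SCAN1#1 replicate 1, SCAN1#1 replicate 2 and SCAN1#2 replicate 2, against 74.9 and 65.8 in WT replicates 1 and 2. The region chr22:50807889-50808470, beyond RPL23AP82 at the end of chromosome 22, had a fold of 46.7, 150.8 and 77.5 in those SCAN1 libraries and of 44.6 and 121.4 in those WT libraries. Both of these regions were narrow, at 296 and 582 bases. In all, 7 regions lay outside the outermost annotated genes of their chromosome, on chromosomes 1, 5, 12, 18, 20 (where there were 2) and 22. The sequence of these regions was not read here, so whether they hold telomeric repeats is not known from these data.

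The short arm of chromosome 21 held 9 regions within 50 kb of a gene for the 45S precursor of ribosomal RNA. They lay near RNA45SN1, RNA45SN3 and the pseudogenes CDC27P9 and CDC27P11. The one at chr21:8228351-8231571, 7.66 kb from CDC27P9, had a fold of 23.2, 39.7 and 53.9 in the SCAN1 libraries, against 28.2 and 69.7 in the WT libraries. The one at chr21:8455532-8456650, 8.96 kb from RNA45SN1, had a fold of 19.9, 51.2 and 33.1 in the SCAN1 libraries, against 17.7 and 41.7 in the WT libraries. WT replicate 2 covered 93.1% to 100% of each of the 9 regions. The ribosomal RNA repeats are near-identical copies, so the copy a read came from is uncertain and these values may be shared among copies.

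Among the 12 regions with the highest ranks, the remaining ones stood by LOC102724775, SMURF2, JPH4, LOC105372980, MICOS10P2, CDC27P11, LOC105372694 and LINC02111. SMURF2 encodes a ubiquitin ligase of the TGF-beta pathway, and the region chr17:64679690-64682523 lay 17.4 kb from it with a fold of 27.5, 42.3 and 46.4 in the SCAN1 libraries and 34.0 and 39.1 in the WT libraries. JPH4 encodes a junctophilin of neuronal membrane junctions, and the region chr14:23580244-23584648 at 1.45 kb from it had a fold of 32.1, 37.2 and 35.3 in the SCAN1 libraries and 38.6 and 49.6 in the WT libraries. For LOC102724775, at 24.3 kb from chr11:86728947-86733729, the fold was 59.0, 75.4 and 57.0 in the SCAN1 libraries and 41.1 and 45.6 in the WT libraries. All 3 of these regions had a fold over 27 in every library.

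**Figure D2:**
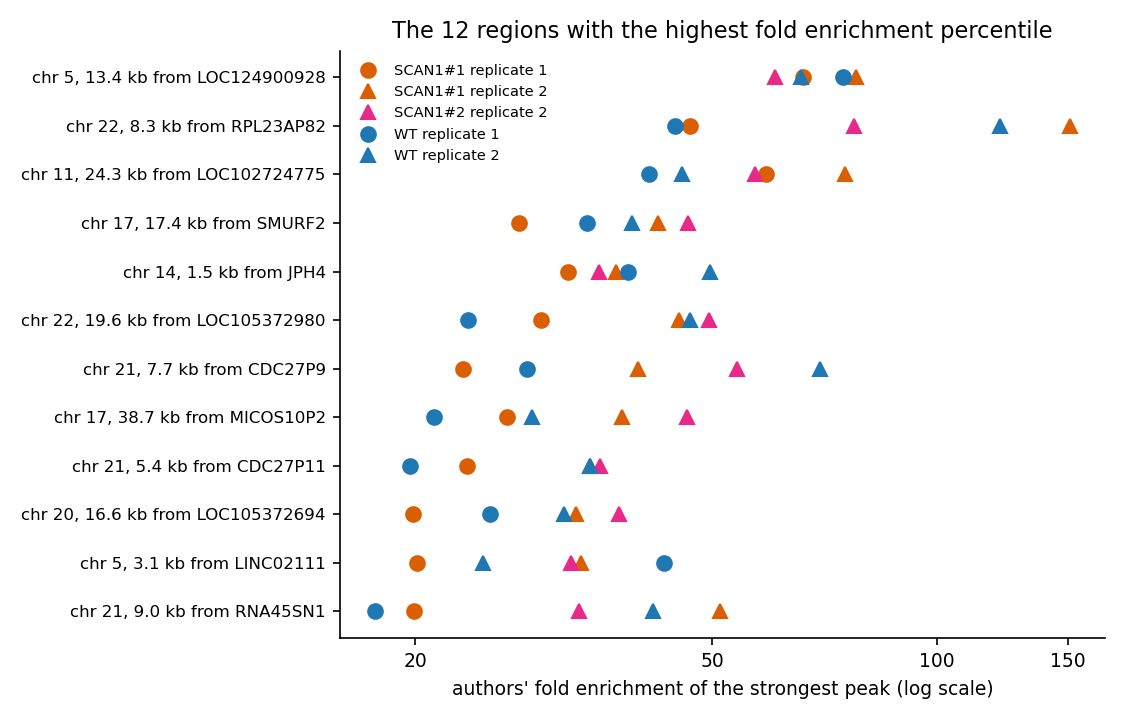
The authors' fold enrichment (log axis) of the strongest peak in each of the 12 regions with the highest mean rank, with 1 point per library (orange, SCAN1#1; pink, SCAN1#2; blue, WT; circles, replicate 1 of experiment 1; triangles, replicate 2 of experiment 2). The values run from 17.7 to 150.8; each belongs to its own list, and the order of points within a row is not a comparison of libraries.

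The 5 regions farthest from genes lay on chromosomes 1, 15 and 5 and are named by their nearest genes, the pseudogene EMBP1, RNU6-978P and EMB. The farthest, chr1:125142226-125143382, was 3570 kb from EMBP1 and was covered over 69.9%, 75.5% and 87.6% of its bases in SCAN1#1 replicate 1, SCAN1#1 replicate 2 and SCAN1#2 replicate 2, against 92.2% and 89.3% in WT replicates 1 and 2. The region chr15:17080531-17083573, 2800 kb from RNU6-978P, was covered over 99.1%, 100% and 99.1% in those SCAN1 libraries and 99.4% and 99.8% in those WT libraries. Such sites stand in long stretches without genes, where reads can have many equal matches; the labels and lists do not say how such reads were treated.

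The width rule left out 61 shared regions away from genes that were 5000 bases or wider. The widest regions kept were 4986 bases (40.7 kb from LOC100422478), 4924 bases (1.75 kb from RPL11) and 4874 bases (3.04 kb from LOC124902311), and the narrowest left out were 5023, 5035 and 5125 bases by EIF3C, KCNJ18 and ENSA. The next widest kept lay by BAHCC1 (4863 bases) and LOC101927209 (4846 bases). At the distance rule, the closest regions kept were 1001, 1001 and 1002 bases from MRPL48P1, TRAP1 and LOC124904653, and 3 regions at 999 bases were left out. The lowest and highest folds over the libraries were 5.05 and 16.5 at the region by MRPL48P1, and 3.20 and 5.58 at the one left out by AURKAIP1.

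Most regions stood alone. Joining regions with gaps of at most 10 kb gave 3927 groups, of which 3471 held a single region, and 456 groups of 2 or more held 1056 regions (23.3%). The largest group had 8 regions at chr4:49122653-49156566, near the centromere of chromosome 4, by LOC101927209. Its bases were covered over 43.5%, 82.6% and 82.6% in the SCAN1 libraries and over 65.5% and 99.8% in the WT libraries, and the genotypes overlapped (exact two-sided permutation p = 0.6). Within experiments SCAN1 minus WT was below 0 each time, at -22.0 points for SCAN1#1 in experiment 1 and at -17.2 points for SCAN1#1 and -17.3 points for SCAN1#2 in experiment 2. With the replicate block the difference was -19.3 points (exact two-sided permutation p = 0.167, the smallest that 6 arrangements allow). As at the regions farthest from genes, the treatment of reads with many equal matches is not stated, and the input samples were not analysed. The next groups had 7 regions by SMURF2 and MICOS10P2 on chromosome 17 and 6 by ELN on chromosome 7. Then came 6 by LOC124904144 on chromosome 17 and 5 by GNA12 on chromosome 7. In all, 6 groups held 5 regions, and the one by GNA12 is named because its regions span the most bases, 7673.

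The clearest pattern in the levels was a gap between the 2 experiments, which among these regions widened with distance from genes. The gap was also larger by long noncoding RNA genes and pseudogenes than by protein-coding genes, so distance from any gene does not describe it alone. Over all regions, mean coverage was 71.3% in SCAN1#1 replicate 2 (experiment 2), against 57.5% in SCAN1#1 replicate 1 (experiment 1), and 72.5% in WT replicate 2 (experiment 2), against 59.0% in WT replicate 1 (experiment 1). SCAN1#2 replicate 2, of experiment 2, had 68.0%. The libraries of the 2 experiments did not overlap, and experiment 2 was higher by 13.8 points in SCAN1#1 and 13.5 points in WT. With 1 library of a line in each experiment, these are values with no test.

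At 1 to 2 kb from a gene, experiment 2 minus experiment 1 was 4.40 points in SCAN1#1 and 4.90 points in WT (509 regions). It was 9.04 and 6.42 points at 2 to 5 kb, 11.6 and 13.6 points at 5 to 10 kb, and 17.2 and 15.5 points at 10 to 20 kb. Beyond that it was 19.1 and 20.5 points at 20 to 50 kb, 24.0 and 22.5 points at 50 to 100 kb, and 24.3 and 24.97 points over 100 kb (148 regions). The libraries of experiment 2 carried the widening. SCAN1#1 replicate 2 covered 63.6% at 1 to 2 kb and 81.2% over 100 kb, SCAN1#2 replicate 2 covered 59.99% and 77.6% at the same distances, and WT replicate 2 covered 67.0% and 82.3%. In experiment 1, SCAN1#1 replicate 1 covered 59.2% at 1 to 2 kb and 56.9% over 100 kb, and WT replicate 1 covered 62.1% and 57.4%. The rank correlation of distance and coverage over the 4527 regions was 0.17, 0.17 and 0.16 in the experiment 2 libraries SCAN1#1 replicate 2, SCAN1#2 replicate 2 and WT replicate 2. It was -0.02 and -0.07 in the experiment 1 libraries SCAN1#1 replicate 1 and WT replicate 1; the points of a library share its depth and antibody, and the width of a region had a rank correlation of -0.12 with distance.

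**Figure D3:**
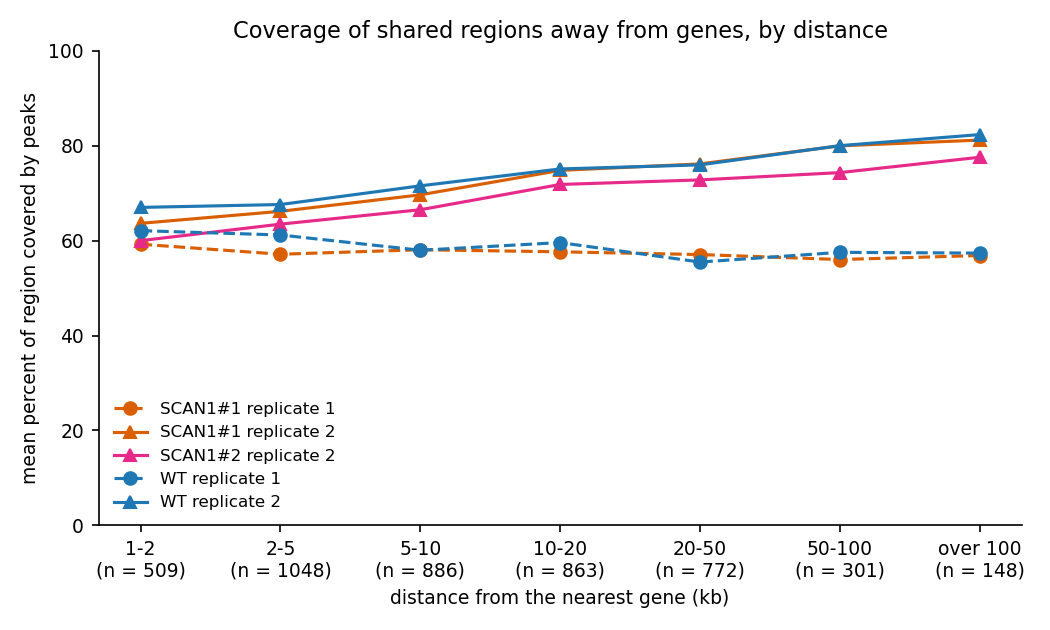
Mean percent of region covered by peaks (lists of equal length) against distance from the nearest gene in 7 bins, with 1 line per library (orange, SCAN1#1; pink, SCAN1#2; blue, WT; solid lines and triangles, experiment 2; dashed lines and circles, experiment 1). The 3 lines of experiment 2 climb to 77.6% to 82.3% over 100 kb while both lines of experiment 1 stay between 55.5% and 62.1%.

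The kind of nearest gene went with the gap as well. Within 10 kb of a protein-coding gene, experiment 2 was higher by 3.11 points in SCAN1#1 and 3.16 points in WT (1246 regions), and at more than 10 kb from such a gene by 15.8 and 14.3 points (674 regions). Within 10 kb of a long noncoding RNA gene the gap was already 14.4 points in SCAN1#1 and 13.6 points in WT (654 regions), and beyond 10 kb it was 20.7 and 20.4 points. By pseudogenes it was 15.8 and 16.5 points within 10 kb (430 regions) and 21.8 and 21.9 points beyond. By chromosome, the smallest gap stood on chromosome 19, at 4.24 points in SCAN1#1 and 1.82 points in WT, where the median distance to a gene was 4.68 kb. Chromosome 21 had 26.4 and 19.7 points over 66 regions, with the ribosomal RNA regions among them, and chromosome 4 had 23.04 and 18.5 points at a median distance of 14.8 kb.

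Coverage was more than 20 points higher in experiment 2 in both SCAN1#1 and WT at 995 regions (21.98%), against 14.8% of all 21945 shared regions. It was more than 20 points lower in both at 220 regions (4.86%), against 9% of all shared regions. In limma with genotype and experiment as terms, no region away from genes passed an adjusted p of 0.05 for the experiment (0% of all shared regions were called, smallest adjusted p = 0.275). At an unadjusted p under 0.05, 815 regions (18.0%) were higher in experiment 2 and 95 (2.10%) lower, where all shared regions gave 9.96% and 4.31%. Sites that the rule left out leaned the same way in the lists as deposited, whose lengths differ. There, 9342 merged regions under 5000 bases had a peak in all 3 libraries of experiment 2 and none of experiment 1. Of these, 37.7% lay away from genes and 4.04% at gene ends. A peak in both libraries of experiment 1 and none of experiment 2 was found at 2882. Of those, 16.5% lay away from genes and 14.5% at gene ends. Among all merged regions under 5000 bases, 28.0% lay away from genes and 9.17% at gene ends. The numbers of such sites depend on list length, and with lists of equal length they were 5762 and 4785. The shares away from genes were then 40.4% and 15.1%.

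Against other shared regions, the gap between experiments was larger away from genes. Mean coverage of shared regions at gene ends was 65.5%, 68.2% and 62.5% in SCAN1#1 replicate 1, SCAN1#1 replicate 2 and SCAN1#2 replicate 2, and 62.8% and 58.6% in WT replicates 1 and 2. There, experiment 2 minus experiment 1 was 2.71 points in SCAN1#1 and -4.13 points in WT, and inside genes it was 4.66 and 3.96 points. Regions at genes other than protein-coding ones had a gap of 11.3 points in SCAN1#1 and 11.6 points in WT, close to that away from genes. It was more than the 9.04 and 6.42 points of the regions 2 to 5 kb from genes. The exact sign-flip test over 5 libraries, which cannot reach a p under 0.05, was used for the level of the classes. The coverage away from genes minus that at gene ends averaged 2.17 ± 8.45 points (SD, n = 5 libraries; exact two-sided p = 0.625), with 3.13 to 13.8 points in the libraries of experiment 2 and -7.93 and -3.75 points in the experiment 1 libraries of SCAN1#1 and WT. Against regions inside genes it averaged 5.83 ± 5.76 points (SD, n = 5; exact two-sided p = 0.1875). Fold rank here is the percentile of a region's strongest peak in the library's list of equal length, set to the lowest value where no peak was left. The median away from genes minus that at gene ends averaged -8.25 ± 10.0 points (SD, n = 5; exact two-sided p = 0.1875) and minus that inside genes 8.96 ± 8.35 points (SD, n = 5; exact two-sided p = 0.125). With the lists as deposited these were -7.08 and 5.86 points.

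**Figure D4:**
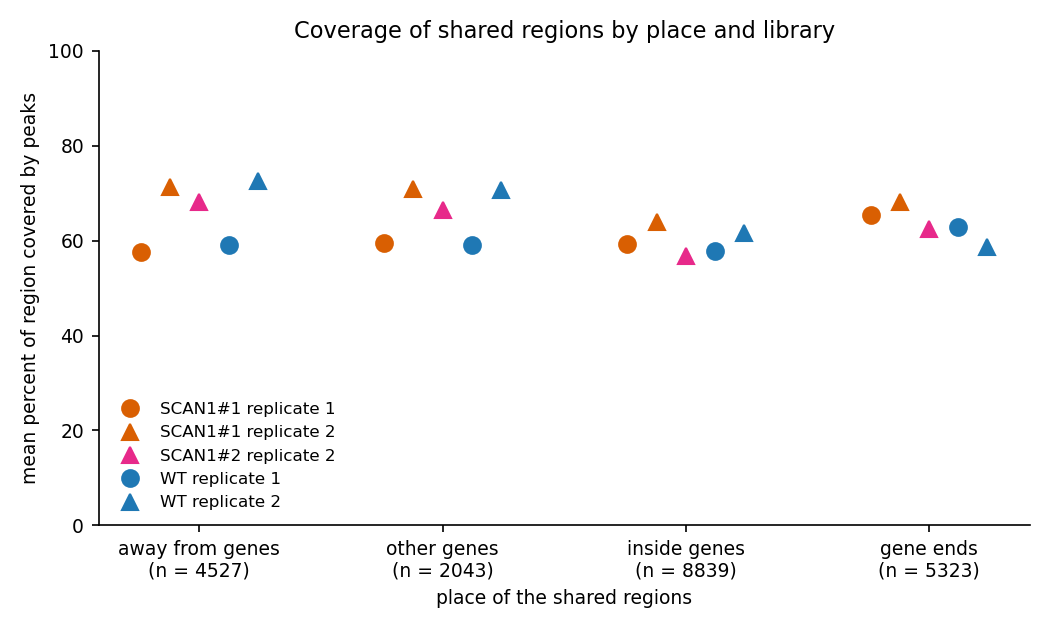
Mean percent of region covered by peaks (lists of equal length) for 4 classes of shared regions under 5000 bases, with 1 point per library (orange, SCAN1#1; pink, SCAN1#2; blue, WT; circles, experiment 1; triangles, experiment 2). Away from genes the 3 triangles, at 68.0% to 72.5%, stand above both circles, at 57.5% and 59.0%, and at gene ends the libraries of the experiments overlap.

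No difference between SCAN1 and WT libraries was found in the level of these regions as a whole. Mean coverage was 57.5%, 71.3% and 68.0% in SCAN1#1 replicate 1, SCAN1#1 replicate 2 and SCAN1#2 replicate 2, against 59.0% and 72.5% in WT replicates 1 and 2. That is 65.6 ± 7.19% in SCAN1 (SD, n = 3) and 65.7 ± 9.51% in WT (SD, n = 2), a difference of -0.101 points (exact two-sided permutation p = 1; the smallest the 10 splits allow is 0.1). The share of all peak bases that fell in the regions was 6.46%, 7.22% and 7.66% in those SCAN1 libraries and 6.49% and 7.54% in those WT libraries, or 7.11 ± 0.608% in SCAN1 (SD, n = 3) and 7.02 ± 0.737% in WT (SD, n = 2; exact two-sided permutation p = 0.8). The groups overlapped in both measures, and the spread within each genotype followed the experiment. The split of libraries without the block counts that gap as spread, so its p does not show that the genotypes were alike. Within an experiment, SCAN1 minus WT in coverage was -1.46 points in experiment 1 for SCAN1#1, and -1.14 points for SCAN1#1 and -4.43 points for SCAN1#2 in experiment 2, both of which share WT replicate 2. The other shared regions under 5000 bases gave 1.74, 4.34 and -1.92 points in the same comparisons, and the difference between the 2 sets was not tested. With the experiment as a replicate block, the difference in coverage was -2.22 points (exact two-sided permutation p = 0.333). That in the share of peak bases was -0.0736 points (exact two-sided permutation p = 0.833). The smallest p that the 6 arrangements allow is 0.167. In the lists as deposited, mean coverage was 57.5%, 77.7% and 72.1% in SCAN1#1 replicate 1, SCAN1#1 replicate 2 and SCAN1#2 replicate 2. It was 63.3% and 76.5% in WT replicates 1 and 2, so the size of a difference within an experiment depends on the lists used.

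At single regions, limma across all 21945 shared regions called 0 regions away from genes between SCAN1 and WT at an adjusted p of 0.05, and 0% of all shared regions (smallest adjusted p = 0.999554). This fit had little power. At the region by ZNF608, a fitted difference of 90.1 ± 29.1 points (SE), near the largest a percent allows, had a limma adjusted p of 0.999554. The fit could thus hardly have called any region, and its 0 does not show that the genotypes were alike at single regions. At an unadjusted p under 0.05, 86 regions (1.9%) were higher in SCAN1, against 1.89% of all shared regions, and 47 (1.04%) were lower, against 0.734%. With the replicate block 101 were higher and 123 lower at that p, and again none passed the adjusted threshold. The 3 SCAN1 libraries all stood above both WT libraries at 307 regions (6.78%, background 9.23%) and all below at 350 regions (7.73%, background 7.41%). The difference between SCAN1#1 and WT in experiment 1 had a correlation across regions of 0.04 (Pearson and Spearman, n = 4527) with that in experiment 2. That correlation is a description, and the regions of a library share its depth and antibody.

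The regions with the most even differences between the genotypes are given as values, since none passed the test. Coverage was higher in the SCAN1 libraries in every comparison within an experiment at regions by PHACTR4, ZNF608, ELN, UBASH3B, SLC2A1, RN7SKP148, ITGAV and SLC25A51P2, chosen for the size of their smallest such difference. ELN encodes elastin, and the region chr7:74012110-74013826, 14.3 kb from it, had coverage of 94.1%, 77.1% and 86.1% in the SCAN1 libraries and of 15.6% and 0% in the WT libraries. The fitted difference was 77.97 ± 28.9 points (SE; limma adjusted p = 0.999554). UBASH3B encodes a tyrosine phosphatase, and at chr11:122642732-122644294, 11.4 kb from it, coverage was 100%, 90.0% and 72.3% in the SCAN1 libraries and 14.7% and 0% in the WT libraries. SLC2A1 encodes the glucose transporter GLUT1, and at chr1:42922019-42922435, 2.92 kb from it, coverage was 94.2%, 71.9% and 80.1% in the SCAN1 libraries and 0% in both WT libraries.

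A value of 0% in lists of equal length means that a library's peak there was too weak for its 63456 strongest, not that it had none. In the lists as deposited, WT coverage at the SLC2A1 region was 59.7% and 81.3% in replicates 1 and 2, and replicate 2 lay within the range of the SCAN1 libraries. At the ELN region it was 15.6% and 19.3%, and at the UBASH3B region 14.7% and 32.1%, so that SCAN1 and WT stayed apart at both. The 8 regions of this direction stayed apart in the deposited lists in 5 cases (by PHACTR4, ELN, UBASH3B, RN7SKP148 and SLC25A51P2). At PHACTR4 they did so narrowly, as WT coverage there was 82.7% and 71.5% and the difference 11.7 points.

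In the other direction, coverage was lower in every SCAN1 library at regions by KMT2E-AS1, RN7SL156P, BBC3, HCG14, TLX2, MLYCD, LOC346329 and, a second time, PHACTR4. BBC3 encodes PUMA, a p53 target that triggers apoptosis, and at chr19:47215374-47216354, 4.47 kb from it, coverage was 43.9%, 0% and 0% in the SCAN1 libraries and 99.1% and 61.7% in the WT libraries. That difference of -65.7 points was -27.8 points in the deposited lists and turned to 14.6 points with peaks of −log10 q of at least 5. The adjacent region by BBC3, chr19:47216426-47217828, had coverage of 78.7%, 49.3% and 42.8% in the SCAN1 libraries and 74.6% and 59.5% in the WT libraries, which overlapped. MLYCD encodes malonyl-CoA decarboxylase, and at chr16:83888627-83889371, 9.74 kb from it, coverage was 28.2%, 0% and 39.6% in the SCAN1 libraries and 98.8% and 92.2% in the WT libraries. TLX2 encodes a homeobox factor, and at chr2:74509853-74513069, 1.38 kb from it, coverage was 47.3%, 0% and 20.2% in the SCAN1 libraries and 100% and 76.8% in the WT libraries. In the deposited lists 7 of these 8 stayed apart, all but the one by PHACTR4. PHACTR4, a regulator of protein phosphatase 1 and actin, had 1 region on each side: coverage was 83.5%, 94.96% and 87.8% in the SCAN1 libraries and 0% in both WT libraries at chr1:28354608-28355421, and 25.4%, 0% and 51.0% in the SCAN1 libraries and 76.1% and 100% in the WT libraries at chr1:28366221-28367178. With peaks of −log10 q of at least 5, the difference at the first of these was 0 points.

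The 6 regions by ELN formed the group with the largest difference among the 5 named above. They span chr7:74002533-74016488, between 11.7 and 24.3 kb from the gene, and their bases were covered over 81.7%, 70.6% and 78.1% in SCAN1#1 replicate 1, SCAN1#1 replicate 2 and SCAN1#2 replicate 2, against 44.5% and 42.7% in WT replicates 1 and 2. SCAN1 and WT did not overlap, and the difference of 33.2 points had the smallest p that 10 splits allow (exact two-sided permutation p = 0.1). With the replicate block it was 34.0 points (exact two-sided permutation p = 0.167, again the smallest that 6 arrangements allow). The group of 7 by SMURF2 and MICOS10P2, at chr17:64699800-64721324, had 84.0%, 70.6% and 51.1% in the SCAN1 libraries and 47.8% and 31.8% in the WT libraries, a difference of 28.8 points without overlap (exact two-sided permutation p = 0.2). At GNA12, which encodes a G protein alpha subunit, 5 regions had 64.1%, 77.9% and 63.3% in the SCAN1 libraries and 36.4% and 64.4% in the WT libraries, which overlapped (exact two-sided permutation p = 0.3). The 6 regions by LOC124904144 had 54.6%, 87.3% and 75.5% in the SCAN1 libraries and 76.3% and 74.1% in the WT libraries (exact two-sided permutation p = 0.9). Of the other groups of 5, the one by HAPSTR1 at chr16:9051804-9068240, picked out after its values were seen, had 66.5%, 67.0% and 77.2% in the SCAN1 libraries and 46.5% and 27.6% in the WT libraries, without overlap. Regions of a group lie within 10 kb of each other and are not independent.

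**Figure D5:**
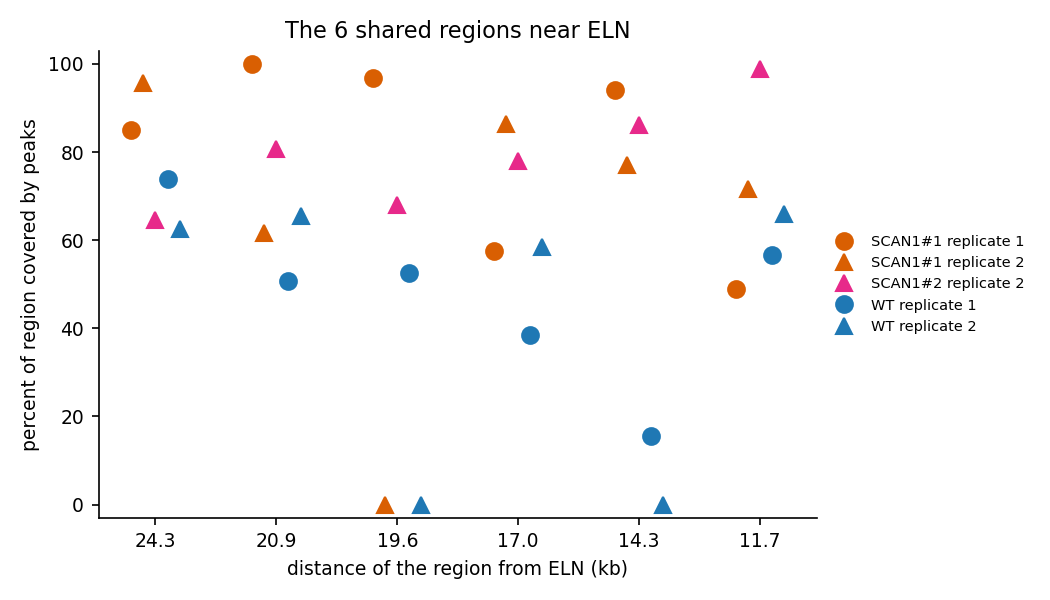
Percent of region covered by peaks (lists of equal length) at the 6 regions by ELN, ordered by distance from the gene in kb, with 1 point per library (orange, SCAN1#1; pink, SCAN1#2; blue, WT; circles, experiment 1; triangles, experiment 2). The widest gap stands at 14.3 kb, where the SCAN1 libraries have 77.1% to 94.1% and the WT libraries 15.6% and 0%; at other regions of the group the genotypes overlap.

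By chromosome, mean coverage was lower in SCAN1 in all 3 comparisons on 10 chromosomes, higher in all 3 on 2 (18 and X) and mixed on 11. The 113 regions of chromosome 18 had 4.804 points for SCAN1#1 in experiment 1 and 10.6 points for SCAN1#1 and 7.21 points for SCAN1#2 in experiment 2. The other shared regions of chromosome 18 gave 5.91, 9.42 and 4.65 points. On chromosome X, 39 regions gave 2.56, 5.43 and 2.37 points, and the other shared regions of that chromosome gave 2.28, 12.4 and 4.90 points. None of these values by chromosome was tested. Chromosome 14 held 138 regions before TDP1 and 1 beyond its start.

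The neighbours of the regions included a few stress and lineage genes from lists chosen with earlier results of these data known. Of 30 immediate early and stress genes, 6 were the nearest gene of 7 regions (EGR1, FOSL2, HES1, IER5, KLF2 and MYC). Of 20 p53 targets, 5 were nearest to 8 regions (BAX, BBC3, DDB2, SESN2 and TIGAR), and of 22 osteoblast and mesenchymal genes, 5 were nearest to 6 regions (ACTB, COL1A1, COL1A2, MYH9 and TPM1). PVT1 alone of 9 abundant long noncoding RNA genes was nearest to 3 regions, and DNAJB1 alone of 11 heat shock genes to 2. For scale, 1583 of all 19974 protein-coding genes were the nearest gene of a region. The counts by list were not tested. The region 1.34 kb upstream of EGR1, an immediate early transcription factor, had coverage of 97.8%, 48.7% and 53.6% in the SCAN1 libraries and of 36.9% and 80.7% in the WT libraries. At HES1, a Notch target repressor, the region 1.903 kb away had 80.0%, 91.0% and 92.7% in the SCAN1 libraries and 87.9% and 81.2% in the WT libraries. At COL1A1, which encodes a chain of type I collagen, the region 4.37 kb away had 22.2%, 50.2% and 0% in the SCAN1 libraries and 51.0% and 0% in the WT libraries. The genotypes overlapped at all 3 of these regions.

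The side of a protein-coding gene on which a region lay made a gap of over 5 points in WT replicate 2 alone. Within 10 kb, mean coverage of the 522 downstream regions was 58.6%, 61.2% and 57.6% in the SCAN1 libraries and 59.99% and 59.8% in the WT libraries. That of the 423 upstream regions was 58.9%, 60.02% and 58.5% in the SCAN1 libraries and 60.8% and 66.3% in the WT libraries. WT replicate 2 was the highest library upstream, and these values were not tested.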

How the data were processed

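The files were 5 lists of peaks, 1 per DRIP library, in the narrowPeak format. Per the submitters' processing notes, the tools were MACS3 3.0.0a6, deepTools 3.5.1, SAMtools 1.9, BWA 0.7.17-r1188 and FastQC 0.11.5, with hg38 as the build; they state no role for a tool, no calling option and no use of input. The deposited columns hold, for each peak, the authors' fold enrichment (a ratio over local background), −log10 p and −log10 q, a score and the position of the summit. The lowest −log10 q of the lists was 2.00 to 2.01. Depth is unknown, so no counting interval is given.

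Peaks on chromosomes 1 to 22 and X were merged where they overlap. Genes came from the RefSeq table of GRCh38 (59098 genes, with strand known for 27195). The members and all lists of genes were chosen with earlier results of these data known. Coverage was computed from the 63456 strongest peaks of each library. SCAN1 (3 libraries of 2 lines) and WT (2) were compared by exact permutation of libraries, classes of region by exact sign flips, and single regions by limma 3.58.1 in R 4.3.3 (moderated by eBayes with a trend, p adjusted by Benjamini-Hochberg over 21945 shared regions). The limma code was tried on simulated data whose spread was well below that of the real data. That trial checks the code and does not show the power of the fit here. Other values were computed with Python 3.11.15, numpy 2.4.6, pandas 2.3.3 and scipy 1.17.1. In the labels a replicate number is that of its experiment, so the numbers pair the libraries. Deviations from the group means correlated by 0.28 in experiment 1 and by 0.13 (SCAN1#1) and 0.16 (SCAN1#2) in experiment 2. Such deviations cancel out within a genotype, so these correlations are not independent of each other. Named regions were the 12 highest in mean fold percentile, the 5 farthest, the 5 widest, the 5 largest groups, those at the thresholds, up to 4 per gene list by closeness, and up to 8 per direction with the largest smallest difference over the 3 comparisons within experiments. Alternatives were the deposited lists, peaks with −log10 q of at least 5, distances over 5 and 10 kb, at least 50% coverage in each library, the block, log2 of covered bases plus 100, regions with a peak in at least 3 libraries, and leaving out each library. No genome sequence was used here.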

Additional observations from a re-analysis of the deposited data

Results flagged for a closer look

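The SCAN1 lines differed in sign from each other in the share of peak bases that fell in regions away from genes. Against WT of the same experiment, the share was lower in SCAN1#1, with differences of -0.0385 points in experiment 1 and -0.322 points in experiment 2, and higher in SCAN1#2, with 0.122 points in experiment 2. The 5 regions by GNA12 gave coverage differences of 27.7 points (experiment 1) and 13.5 points (experiment 2) for SCAN1#1 minus WT, and of -1.04 points for SCAN1#2 minus WT. The difference between the lines was not tested in either case, since SCAN1#2 has 1 library, and the comparisons of experiment 2 share WT replicate 2.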

How the results depend on the processing

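The number of regions was 2970 at over 5 kb and 2084 at over 10 kb from genes, 2660 with −log10 q of at least 5, 1785 with at least 50% coverage in each library, and 4718 to 7580 when 1 library was left out (7580 without SCAN1#1 replicate 1). With lists of equal length it was 3530. The gap between experiments in mean coverage was 20.1 points for SCAN1#1 in the deposited lists, and at over 5 kb 17.04 points in SCAN1#1 and 17.4 points in WT; in every setting run it was above 0, and it was wider over 100 kb than at 1 to 2 kb (deposited lists, 25.4 and 13.4 points in SCAN1#1 and 22.6 and 6.23 points in WT; −log10 q of at least 5, 28.3 and 3.48 points in SCAN1#1 and 29.1 and 3.92 points in WT). These settings of the gap were added after seeing the data. SCAN1 minus WT in the share of peak bases turned to -0.0398 points in the deposited lists and -0.0736 points with the replicate block, and ran from -0.427 to 0.615 points with 1 library left out; SCAN1 minus WT in coverage turned to 1.22 points over 5 kb and ran from -6.83 to 6.63 points. Coverage away from genes minus that at gene ends turned to -0.569 points with −log10 q of at least 5 and ran from -0.750 to 4.69 points. The region by BBC3 turned to 14.6 points with −log10 q of at least 5, the group by LOC101927209 ran from -30.3 to 4.06 points (above 0 without WT replicate 2), and that by LOC124904144 from -10.1 to 6.23 points (above 0 without SCAN1#1 replicate 1). The cause of these changes was not tested. No region away from genes passed the adjusted threshold between SCAN1 and WT in any fit run, and in the main fit hardly any region could have. Peak lists without depth or input limit all levels to ranks within a library.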
